A study of Mus musculus with 16 samples.

Results

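The small heat shock proteins and the core of chaperone-assisted selective autophagy were followed as 10 genes, named one by one, of the 31053 genes in the count table. They were the 7 small heat shock protein genes Hspb1, Hspb2, Hspb3, Hspb6, Hspb7, Hspb8 and Cryab, together with Bag3, Hspa8 and Stub1. The genes were listed by name and not by a measured value, though with earlier results of these data known. Of the 10, 9 reached the minimum level set for testing, and Hspb3 did not and is given by its reads.

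Small heat shock proteins bind unfolding proteins without using ATP and hold them for refolding or disposal, and skeletal and heart muscle make an unusually wide set of them. In chaperone-assisted selective autophagy, the co-chaperone Bag3 joins the small heat shock protein Hspb8 to the constitutive HSP70 chaperone Hspa8, the ubiquitin ligase Stub1 (CHIP) tags the damaged client, and the complex is passed to the autophagosome. In muscle the pathway is best known for the turnover of filamin C at the Z-disc, a protein that contraction repeatedly unfolds.

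Messenger RNA was sequenced from the mouse myoblast line C2C12 in 4 groups of 4 samples each, undifferentiated myoblasts and differentiated myotubes of wild-type (WT) cells and of cells in which Fam134b was knocked out (Fam134b KO). Fam134b encodes an ER-phagy receptor, a membrane protein that directs pieces of endoplasmic reticulum to autophagy. The KO cells were made with a lentiviral CRISPR-Cas9 vector that carried a guide pair, followed by antibiotic selection; whether they descend from 1 clone is not stated in the sources used here. All groups were kept in the same growth medium with 10% serum, and myotubes formed spontaneously once the cells were confluent. Genotype and stage were taken from the sample titles, and the labels call the replicates biological.

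Each library held 1484750 to 3287461 reads on genes, and the count of a gene is given below as a normalized count, that is, reads divided by the size factor of its library. In this unit 3 reads corresponded to 2.49 to 5.995 normalized counts, so lower values cannot be told from 0. Fam134b averaged 207 ± 42.0 normalized counts in WT myoblasts and 27.5 ± 5.49 in KO myoblasts (SD, n = 4 each), or 13.3% of WT, and the KO myotubes held 18% of the WT myotube mean. The 8 muscle markers examined summed to 1842 to 2708 normalized counts in WT myoblasts and 25490 to 38210 in WT myotubes, against 22.6 to 34.1 in KO myoblasts and 11490 to 15310 in KO myotubes. These are bulk libraries, in which fewer cells that express a gene and less RNA per cell cannot be told apart. Of the markers of other cell types, those of adipocytes (4 of 5 at 0 in all 16 libraries; summed level 0 to 0.964) and endothelium (2 of 5 at 0; 0 to 2) were at or near 0, and those of macrophages (2 of 5 at 0) summed to 4.00 to 26.1. The fibroblast markers, with decorin (Dcn) as the member that rose, summed to 4 to 9.23 in WT myoblast and 22.5 to 91.5 in WT myotube libraries. In the KO libraries they summed to 5.84 to 13 in myoblasts and 112 to 210 in myotubes. Proliferation markers summed to 3660 to 4350, 2095 to 3274, 2999 to 4194 and 896 to 1417 normalized counts in the same order of groups. The smooth muscle markers summed to 5479 to 13850 over all libraries. Most of that sum was Acta2, with group means of 6454 to 9207, while Myh11 held 0 to 2 reads per library. The part of these marker levels in the results below was not tested.

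Within the KO myoblasts, replicate 2 deviated most from its group mean over all genes (root mean square 0.44 on the log2 scale, against 0.26 to 0.312 in the other 3). The KO myotubes were the most scattered group, with replicates 2 and 4 at 0.691 and 0.616, replicates 1 and 3 at 0.491 and 0.448, and the WT libraries at 0.261 to 0.43. Replicates 2 and 4 of the KO myotubes were also the shallowest libraries, with 1790524 and 1484750 reads. The counts of genes called below were also taken with these 3 KO libraries set aside, a choice made after seeing the data. This left replicates 1 and 3 of the KO myotubes, replicates 1, 3 and 4 of the KO myoblasts, and every WT library. Spread alone does not set KO myoblast replicate 2, at 0.44, apart from the libraries kept. Among those, KO myotube replicates 1 and 3 deviated more, and WT myotube replicates 1 and 2 stood at 0.43 and 0.424.

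Sequence around the starts of several of the genes holds a short element, which is shown because it is the known mark of heat shock regulation. RefSeq windows from 250 bases before to 50 bases after the start (GRCm38.p6, the build of the study's mm10) were at hand for 7 of the 10 genes, and not for Hspb2, Cryab and Hspa8. The core of a heat shock element, GAANNTTC, which reads the same on both strands, was found in the windows of 6 of these 7 genes, Hspb1, Hspb3, Hspb6, Hspb8, Bag3 and Stub1, that is, in 6 of their 8 windows, since Hspb6 has a further start whose window lacks it. Of all 32851 windows of the same length, 7.86% held it. The match lies before the start in 4 of the genes and after it in Bag3, at base 43, and Hspb8, at base 3. It was not among the letters of the Hspb7 window. For Hspb1 (chr5:135887769-135887918, plus strand), Hspb6 (chr7:30553151-30553300, plus strand) and Hspb7 (chr4:141420629-141420778, plus strand), the 150 bases before the start are printed 5′ to 3′ with GAANNTTC in capitals.
Hspb1: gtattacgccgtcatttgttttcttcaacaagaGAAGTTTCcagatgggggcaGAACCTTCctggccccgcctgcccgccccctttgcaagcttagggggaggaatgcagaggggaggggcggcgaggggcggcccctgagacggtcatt
Hspb6: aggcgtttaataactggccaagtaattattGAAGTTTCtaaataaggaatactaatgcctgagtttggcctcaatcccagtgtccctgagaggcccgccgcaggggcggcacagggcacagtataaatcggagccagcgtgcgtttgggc
Hspb7: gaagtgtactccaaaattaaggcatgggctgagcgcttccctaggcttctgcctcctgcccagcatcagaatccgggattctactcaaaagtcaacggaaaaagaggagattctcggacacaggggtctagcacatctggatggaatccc

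From the other 4 windows, 30 bases that hold the core are printed on the gene's strand, from Bag3 (chr7:128523603-128523632, plus), Hspb3 (chr13:113663882-113663911, minus), Hspb8 (chr5:116422844-116422873, minus) and Stub1 (chr17:25833024-25833053, minus), so that the variants of the core can be compared; the Bag3 stretch ends with the core.
Bag3: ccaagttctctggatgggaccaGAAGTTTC
Hspb3: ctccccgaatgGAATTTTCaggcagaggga
Hspb8: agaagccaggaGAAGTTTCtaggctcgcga
Stub1: agagcgcggcgGAAGCTTCtcagagctaag
Hspb1, Hspb6, Hspb8 and Bag3 each held the spelling GAAGTTTC, and Hspb1 held the core at both 117 and 97 bases before its start. Further motifs were searched on both strands: TATAAA (in 13.6% of all windows) matched in Hspb3 and Hspb6, CCAAT (37.4%) in Hspb6 alone, the MEF2 site (3.19%) in Hspb3, where it overlaps TATAAA, while CAGCTG (16.3%) and the CArG box (1.63%) matched in none of the 7. A match describes the sequence and was not tested as a binding site.

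The first comparison asked how the genes change when WT myoblasts become myotubes. Of the 9 genes tested, 7 changed: Hspb7, Cryab, Hspb2 and Hspb8 rose, and Hspa8, Hspb1 and Stub1 fell. Hspb7 moved most, 24.9-fold on the fitted scale, and the other risers stood at 1.60 to 1.63 times the myoblast level. Among all 10767 genes tested, 13.8% were called higher and 9.16% lower (limma, Benjamini-Hochberg adjusted p under 0.05), and the median log2 change was -0.01 over all genes and -0.02 over the 9.

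In KO cells the same step gave 7 calls as well. Hspb7, Cryab, Hspb2 and Hspb8 rose again, and Hspa8, Stub1 and Hspb6 fell, while Hspb1 did not pass. The background was larger here, with 17.3% of all genes called higher and 16.1% lower, and the median log2 change of the 9 was 0.20 against -0.02 over all genes. With the 3 libraries set aside, limma called 8 of the 9 genes in WT cells and 7 in KO cells. The calls over all genes in either direction went from 23.0% to 33.3% in WT and from 33.4% to 34.2% in KO cells. No WT library was set aside, so the WT log2 changes stayed the same and only the spread estimate shared by all groups differed.

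**Figure D1:**
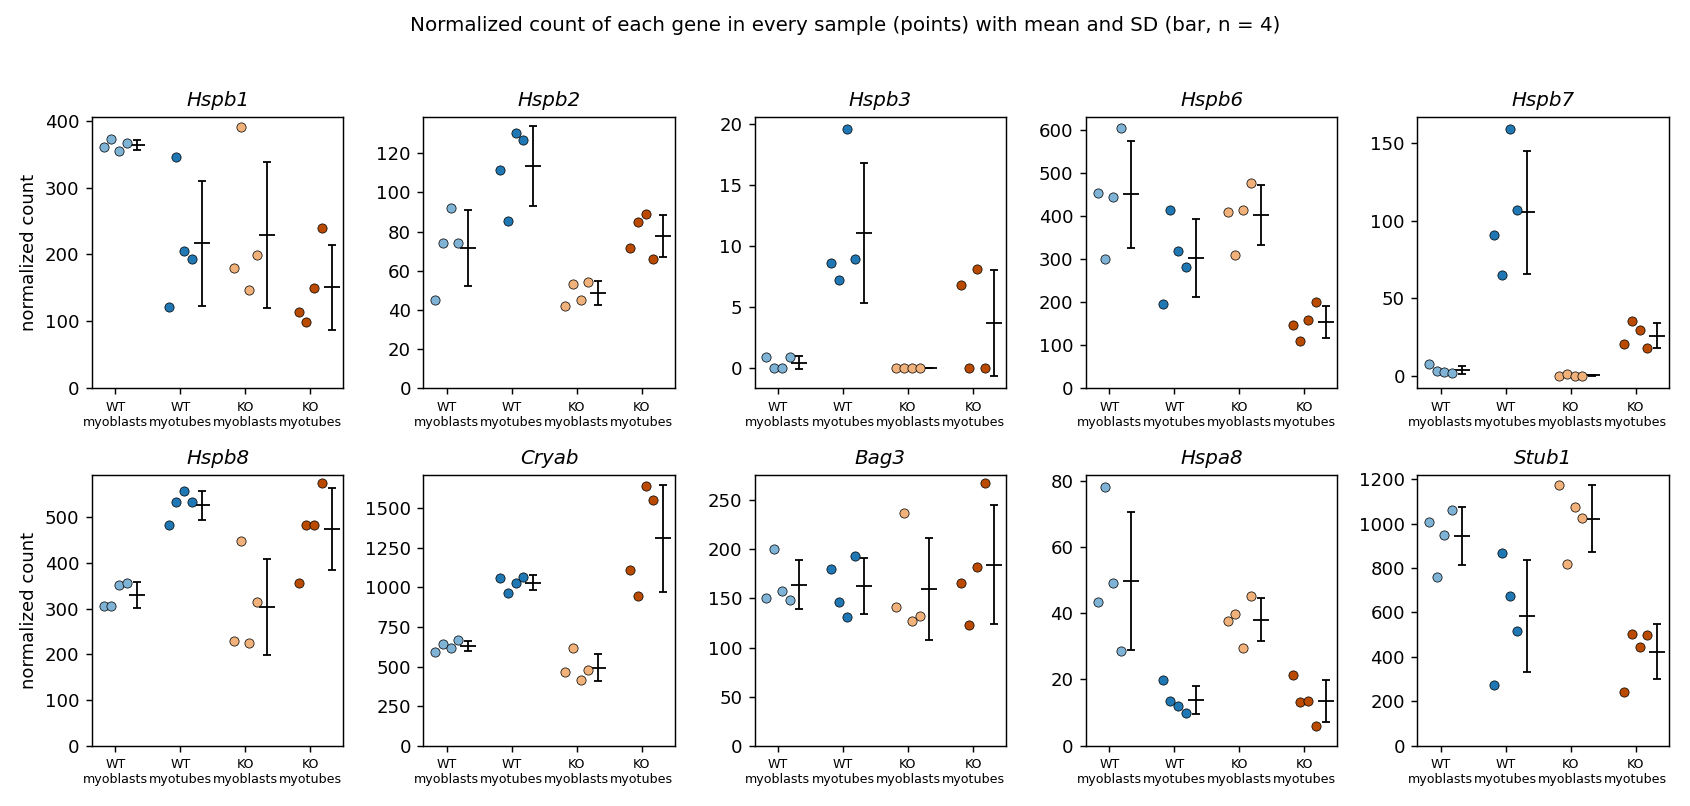
Normalized count (vertical axes, linear and starting near 0) of each of the 10 genes in the 4 groups; points are samples and bars the mean and SD (n = 4). Hspb7 sits between 64.8 and 159 in WT myotubes and at 7.38 or less in every myoblast sample, and Cryab at 944 or more in every myotube sample.

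Hspb7 (chr4:141420779-141425311, plus strand), the cardiovascular small heat shock protein, is a muscle gene whose product binds filamin C. Its normalized counts were 7.38, 2.89, 2 and 1.78 in WT myoblasts and 90.7, 64.8, 159 and 107 in WT myotubes. In KO cells they were 0, 0.830, 0 and 0 in myoblasts and 20.3, 35.0, 29.7 and 18 in myotubes. All myotube samples lay above all myoblast samples, and the WT myotubes above the KO myotubes. The myoblast groups, at 2 to 8 reads per WT library and 0 to 1 per KO library, lay around or under the limit of 3 reads.

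The rise of Hspb7 was 4.64 on the log2 scale in WT cells (SE 0.42, limma adjusted p = 6.8e-08) and 4.48 in KO cells (SE 0.42, adjusted p = 5.05e-08). Because the myoblast counts were so small, these fitted values depend on the pseudocount of 1. The reads themselves were 456 in WT myotubes against 15 in WT myoblasts, a ratio of 29.6 (95% interval 17.8 to 53.3, counting error only). In KO cells they were 87 against 1, a ratio of 123 (21.5 to 4900).

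Cryab (chr9:50751325-50756636, plus strand) encodes αB-crystallin, which protects desmin filaments and the Z-disc. Its normalized counts were 594, 644, 618 and 669 in WT myoblasts and 1059, 966, 1028 and 1067 in WT myotubes. In KO cells they were 463, 615, 418 and 476 in myoblasts and 1110, 944, 1641 and 1551 in myotubes. Myoblasts and myotubes were separate in both genotypes, and the KO myotube values were the most scattered. Cryab rose by 0.71 in WT cells (SE 0.17, limma adjusted p = 0.00519) and by 1.39 in KO cells (SE 0.17, adjusted p = 2.46e-06) on the log2 scale, or 1.63-fold (95% interval 1.27 to 2.09) and 2.62-fold (2.04 to 3.35).

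Hspb2 (chr9:50751078-50752354, minus strand), which forms its own muscle complexes with Hspb3, lies head to head with Cryab, and the annotated bodies of the pair overlap by 1030 bases. Its normalized counts were 45.2, 74.3, 92.1 and 74.0 in WT myoblasts and 111, 85.5, 130 and 127 in WT myotubes, which overlap in 1 sample of each group. In KO cells they were 42.0, 53.1, 45.1 and 54.2 in myoblasts and 71.6, 84.6, 89.1 and 65.9 in myotubes, with no overlap. The log2 rise was 0.69 in WT (SE 0.22, limma adjusted p = 0.0295) and 0.67 in KO cells (SE 0.22, adjusted p = 0.0244). Whether counting used strand is not given in the sources used here, so reads of Hspb2 and Cryab in the shared stretch cannot be told apart. The WT call was lost when any of 5 samples was left out, and the KO call for any of 3 (adjusted p up to 0.121 and 0.0742).

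Hspb8 (chr5:116408491-116422864, minus strand) is the small heat shock protein that partners Bag3. In WT cells its normalized counts went from 305, 306, 351 and 356 in myoblasts to 482, 533, 557 and 533 in myotubes, without overlap. KO myoblasts stood at 228, 448, 224 and 314 and KO myotubes at 356, 482, 482 and 574, and replicate 2 of the KO myoblasts reached into the myotube range. Both log2 rises were near 0.7, at 0.67 in WT (SE 0.19, limma adjusted p = 0.0156) and 0.68 in KO cells (SE 0.19, adjusted p = 0.0101), and both calls held with each sample left out in turn.

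Bag3 (chr7:128523616-128546981, plus strand), the scaffold that Hspb8 binds, passed the test in no comparison. Its normalized counts were 150, 201, 157 and 148 in WT myoblasts and 180, 147, 131 and 193 in WT myotubes, and the log2 difference was -0.02 (95% interval -0.50 to 0.46). KO myoblasts measured 141, 237, 128 and 133 and KO myotubes 166, 123, 182 and 268, a difference of 0.20 (-0.28 to 0.68). The groups overlapped in both genotypes, and neither difference passed the test (limma adjusted p = 0.969 and 0.53).

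Hspa8 (chr9:40800984-40810087, plus strand) encodes the constitutive cytosolic HSP70, HSC70, which does the ATP-driven work of the complex. Its normalized counts fell from 43.4, 78.1, 49.0 and 28.5 in WT myoblasts to 19.9, 13.5, 12.1 and 9.91 in WT myotubes. In KO cells they fell from 37.6, 39.9, 29.5 and 45.0 to 21.3, 13.1, 13.5 and 6. Every myotube sample lay below every myoblast sample of its genotype, with log2 changes of -1.73 in WT (SE 0.35, limma adjusted p = 0.00138) and -1.53 in KO cells (SE 0.35, adjusted p = 0.00226). These counts rest on 3 to 81 reads per library, and 79.8% of the last 500 bases of its transcripts is shared with 14 other genes, mainly processed copies, so an unknown share of its reads may not have been assigned to it.

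Stub1 (chr17:25830505-25833404, minus strand), the ubiquitin ligase of the complex, measured 1007, 758, 951 and 1061 normalized counts in WT myoblasts and 272, 869, 672 and 516 in WT myotubes. Replicate 2 of the WT myotubes was above the lowest myoblast sample, so the groups overlapped. In KO cells the counts went from 1173, 817, 1075 and 1024 to 241, 505, 444 and 500, without overlap. Stub1 fell by 0.81 in WT (SE 0.28, limma adjusted p = 0.0388) and by 1.32 in KO cells (SE 0.28, adjusted p = 0.000918) on the log2 scale, and the WT call was lost when any of 5 samples was left out (adjusted p up to 0.184). Its 3′ end overlaps the antisense gene Jmjd8, which measured 11.7 to 52.5 normalized counts. Since strand settings are not given in the sources used here, the effect of this overlap on either count is not known.

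Hspb1 (chr5:135887919-135889563, plus strand), the widely expressed small heat shock protein that stabilises actin, was tight in WT myoblasts at 361, 372, 354 and 367 normalized counts. WT myotubes measured 122, 345, 205 and 193, all below the myoblasts but widely spread, and the log2 change was -0.84 (SE 0.30, limma adjusted p = 0.0483). That call was lost when any of 7 of the 8 samples was left out (adjusted p up to 0.197). KO myoblasts measured 180, 390, 147 and 199 and KO myotubes 114, 99.2, 149 and 240, which overlapped, with a log2 difference of -0.58 that did not pass (adjusted p = 0.145). Of its last 500 bases, 55.9% is shared with 1 other gene.

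Hspb6 (chr7:30552178-30555443, plus strand) encodes HSP20, a small heat shock protein of smooth, heart and skeletal muscle. It measured 455, 301, 444 and 606 normalized counts in WT myoblasts and 195, 416, 319 and 281 in WT myotubes, which overlapped, and its log2 difference of -0.58 did not pass (SE 0.24, limma adjusted p = 0.0786). In KO cells it measured 410, 310, 415 and 478 in myoblasts and 148, 109, 158 and 200 in myotubes. These were well apart, and Hspb6 fell by 1.4 on the log2 scale (SE 0.24, adjusted p = 0.000105).

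Hspb3 (chr13:113662896-113663676, minus strand), the muscle partner of Hspb2, was close to the detection limit. WT myoblasts held 1, 0, 0 and 1 reads and WT myotubes 10, 8, 21 and 9, and the 48 reads against 2 gave a ratio of 23.4 (95% interval 6.13 to 199, counting error only). KO myoblasts held 0 reads in every library and KO myotubes 7, 0, 9 and 0, and no fold is given for them. The WT groups did not overlap (two-sided exact permutation p = 0.0286, the smallest that 4 against 4 samples allow, and 0.114 after adjustment over the 4 comparisons of this gene), while the KO groups did (exact permutation p = 0.429). With no filter on low values, limma gave Hspb3 an adjusted p of 0.0019 in WT and 0.0855 in KO cells.

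**Figure D2:**
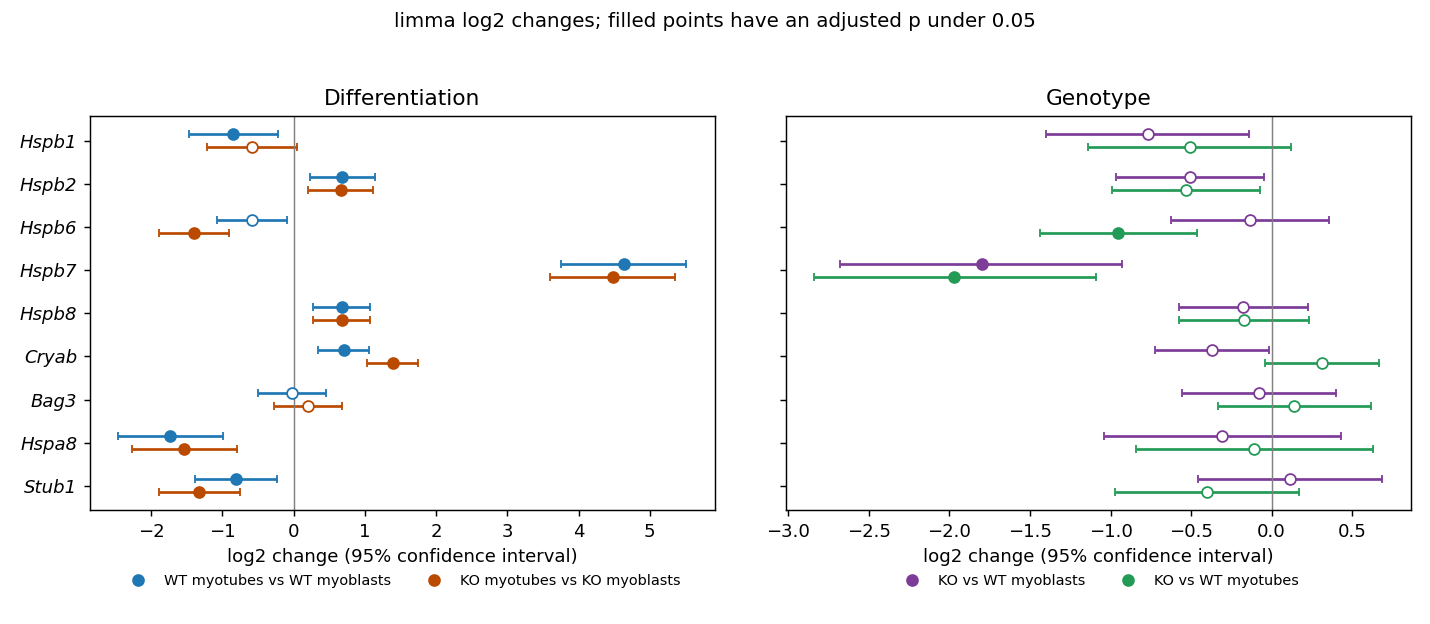
limma log2 change with its 95% confidence interval (horizontal axes) for the 9 genes tested; the left panel shows differentiation in WT and KO cells and the right panel KO against WT at each stage, with filled points for an adjusted p under 0.05. Hspb7 stands apart on both sides, at 4.64 and 4.48 on the left and at -1.80 and -1.97 on the right.

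The next comparison set KO cells against WT cells at each stage. Whether a difference follows from the loss of Fam134b itself or from another difference between the cell lines was not tested. In myoblasts only Hspb7 of the 9 genes tested passed, and it was lower in KO cells; 7.26% of all genes were higher and 8.5% lower. In myotubes Hspb7 and Hspb6 were lower and no tested gene of the group was higher, against 9.74% of all genes higher and 13.7% lower. The median log2 difference of the 9 genes was -0.31 in myoblasts and -0.40 in myotubes, against -0.01 and -0.07 over all genes tested.

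Hspb7 was lower in KO myoblasts by 1.80 on the log2 scale (SE 0.42, limma adjusted p = 0.00414), from the values given above. In reads this was 15 in WT against 1 in KO myoblasts, a WT to KO ratio of 16.6 (95% interval 2.56 to 699, counting error only), and the call was lost with a pseudocount of 5 or quantile normalization (adjusted p up to 0.366). In myotubes, where it was well counted, Hspb7 averaged 105 ± 39.7 normalized counts in WT and 25.8 ± 7.98 in KO cells (SD, n = 4 each). That difference was -1.97 (SE 0.42, adjusted p = 0.00179), or 0.256 of the WT level (95% interval 0.140 to 0.469), and held under each alternative tried. The summed muscle markers moved in the same direction, and their part in the result was not tested.

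Hspb6 averaged 303 ± 91.4 normalized counts in WT myotubes and 154 ± 37.1 in KO myotubes (SD, n = 4 each). The highest KO sample, at 200, was just above the lowest WT sample, at 195. The log2 difference was -0.95 (SE 0.24, limma adjusted p = 0.00558), a level 0.517 times that of WT (95% interval 0.368 to 0.726). In myoblasts the difference was -0.14 (95% interval -0.63 to 0.35) and did not pass (adjusted p = 0.776).

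The other small heat shock genes did not pass the test at either stage. Hspb1 differed by -0.77 in myoblasts and -0.51 in myotubes (limma adjusted p = 0.0938 and 0.241), and Hspb2 by -0.51 and -0.53 (adjusted p = 0.133 and 0.0887). Cryab differed by -0.37 in myoblasts and 0.31 in myotubes (adjusted p = 0.164 and 0.199). Replicate 2 of the KO myoblasts measured 390 for Hspb1, above every WT sample, and the other 3 measured 147 to 199, below every WT sample. With the 3 libraries set aside Hspb1 and Cryab passed in myoblasts, at -1.06 and -0.48 (adjusted p = 0.00277 and 0.0266), so that 3 of the 9 genes were called there instead of 1, and in myotubes still 2. Over all genes the calls went from 15.8% to 20.9% in myoblasts and from 23.4% to 23.6% in myotubes.

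Hspb3 held 48 reads in WT and 16 in KO myotubes, and the groups overlapped (two-sided exact permutation p = 0.0571, adjusted 0.114). With no filter on low values limma gave it a log2 difference of -1.96 (adjusted p = 0.0347). For the autophagy complex, the 95% intervals of the KO difference in myotubes were -0.57 to 0.23 for Hspb8, -0.34 to 0.62 for Bag3, -0.85 to 0.63 for Hspa8 and -0.97 to 0.17 for Stub1 on the log2 scale. None of these 4 passed, and the intervals leave room for differences of about that size in either direction.

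Whether differentiation itself differed between the genotypes was tested as an interaction, the KO change minus the WT change. It was called for 3.45% of all genes, 371 in number, and for 0 of the 9 tested here by limma; 2 of the 9 had an unadjusted p under 0.05, against 17.4% of all genes, and voom, limma's weighting of recovered reads, also called 0. Cryab had the smallest p, rising 0.68 more in KO cells (SE 0.24, unadjusted p = 0.0103, limma adjusted p = 0.132), followed by Hspb6, at -0.82 (SE 0.33, unadjusted p = 0.0232, adjusted p = 0.199). With the 3 libraries set aside Cryab passed, at 0.87 (adjusted p = 0.0242), while the calls over all genes went from 3.45% to 7.24%, and across all alternatives its adjusted p ran from 0.00879 (sample weights) to 0.251. For Hspb7 the interaction was -0.16 (95% interval -1.4 to 1.08), and a difference in its rise between the genotypes was not detectable here. This value depends on the pseudocount, since KO myoblasts held 0 to 1 reads per library. Across all alternatives it ran from -1.27 to 0.69.

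**Figure D3:**
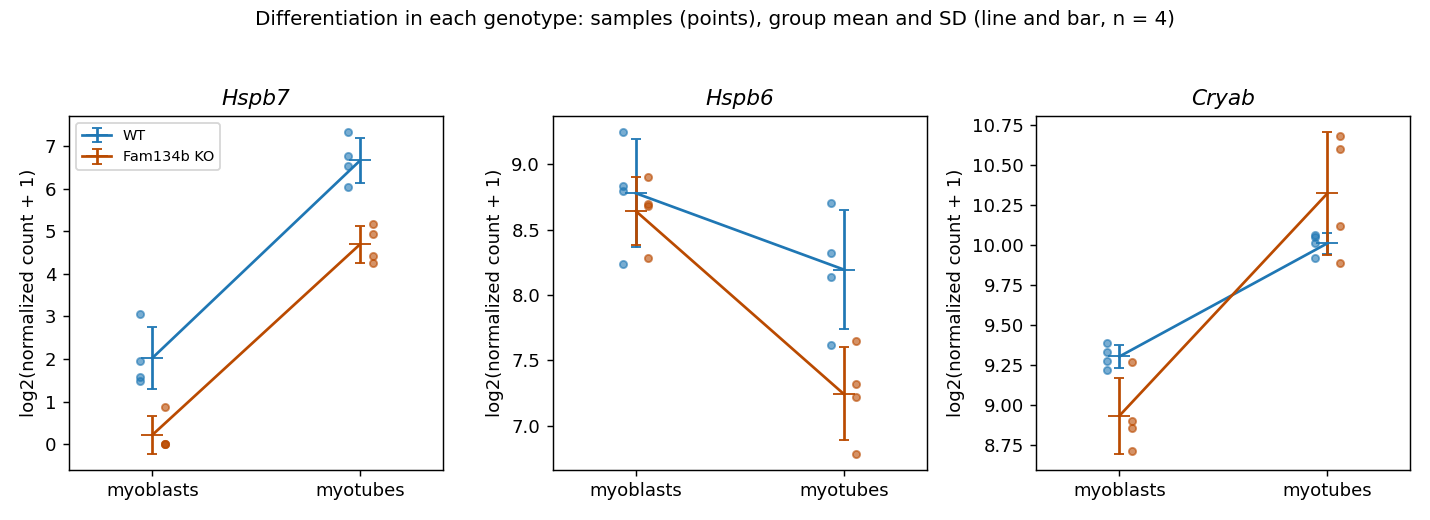
log2(normalized count + 1) of Hspb7, Hspb6 and Cryab (vertical axes, each with its own range, not starting at 0) in myoblasts and myotubes of WT and Fam134b KO cells; points are samples, lines join group means and bars are the SD (n = 4). The Hspb7 lines run side by side, though its KO myoblast level, from 0 to 1 reads per library, depends on the pseudocount. Hspb6 is lower in KO myotubes, and the Cryab lines cross, although the Cryab interaction did not pass the test (limma adjusted p = 0.132).

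Across the 16 samples the log2 values of the genes fell into a pattern that is given as a description, since the samples share genotype and stage. Hspb7, Hspb8, Cryab and Hspb2 rose and fell together (Pearson r 0.654 to 0.833 for their 6 pairs), and Stub1 went with Hspb6 (r = 0.842) and against Cryab (r = -0.764). The highest r of Bag3 with any of them was 0.438, with Cryab.

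Among all other genes tested, those most like Hspb7 over the 16 samples were Cav3, which encodes the muscle caveolin, and the cell cycle inhibitor Cdkn1a (r = 0.988 and 0.985). Hspb2 was most like Dusp28 and the muscle transcription factor Mef2c (0.895 and 0.889), and Hspb8 most like Casq1, the calcium store protein of fast muscle, and Rhoq (0.887 and 0.884). Cryab was most like Pla2g16 and Spg21 (0.962 and 0.958). The genes that fell had other companions, Polr2e and Clns1a for Hspb1, Lsm4 and Vipas39 for Hspb6, Eftud2 and Ccnf for Hspa8, and Ppp1r11 and Atox1 for Stub1, with r from 0.883 to 0.972.

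Of 12 partners and clients of the pathway, all tested, 3 rose and 0 fell in each genotype on differentiation. Beside this, 13.8% of all genes rose and 9.16% fell in WT cells, and 17.3% rose and 16.1% fell in KO cells. Filamin C, the client, rose by 2.20 in WT and 1.5 in KO cells on the log2 scale (SE 0.29, limma adjusted p = 1.33e-05 and 0.000461), and its WT counts went from 103 to 233 in myoblasts to 593 to 879 in myotubes. Desmin, the intermediate filament protein at the Z-disc, rose by 0.97 and 1.23 (adjusted p = 0.000504 and 1.95e-05). Synpo2, which links Bag3 to the autophagosome machinery, rose by 0.76 in WT cells (adjusted p = 0.021), and Vps16 by 0.69 in KO cells (adjusted p = 0.00869).

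KO cells held less desmin and Synpo2 message and more Sqstm1 at both stages. Desmin measured 438 to 674 normalized counts in WT and 101 to 170 in KO myoblasts, and 825 to 1223 against 296 to 319 in myotubes, log2 differences of -1.97 and -1.71 (limma adjusted p = 3.74e-08 and 9.87e-07). Synpo2 differed by -0.83 and -1.35 (adjusted p = 0.0157 and 0.000231). Sqstm1, which encodes the autophagy receptor p62, measured 1630 to 1924 in WT and 2522 to 2586 in KO myoblasts, and 1255 to 1527 against 1711 to 3011 in myotubes. Its differences were 0.54 and 0.84 (adjusted p = 0.027 and 0.000796), and the groups did not overlap at either stage. Map1lc3b, whose LC3 product coats the autophagosome, was higher in KO myotubes by 0.69 (adjusted p = 0.0363), and 25.8% of its last 500 bases is shared with other genes.

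Of the HSP70, HSP110 and HSP90 genes, 8 tested of 10 listed, 4 fell and 0 rose on differentiation in WT cells. In KO cells 2 fell and 0 rose, and the median log2 changes were -0.50 in WT and -0.19 in KO cells. The shares over all genes tested were 13.8% higher and 9.16% lower in WT cells, and 17.3% higher and 16.1% lower in KO cells. Hsp90aa1, the inducible cytosolic HSP90, fell by 1.4 in WT and 1.20 in KO cells (SE 0.25, limma adjusted p = 0.000391 and 0.000956), although 64.5% of its last 500 bases is shared with 16 other genes. Hsph1, an HSP110 nucleotide exchange factor, fell by 0.82 in WT cells (adjusted p = 0.00711). By genotype, Hspa4l, another HSP110, was lower in KO cells by 1.74 in myoblasts and 1.52 in myotubes (adjusted p = 3.92e-07 and 6.33e-06), at 90.5 to 132 normalized counts in KO against 352 to 476 in WT myoblasts. Hsph1 was lower in KO myoblasts by 0.68 (adjusted p = 0.0274) and Hsp90ab1, the constitutive HSP90, higher in KO myotubes by 0.51 (adjusted p = 0.0259), with 41.0% of its last 500 bases shared with 14 other genes.

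Among the J-domain proteins, which stimulate the HSP70 ATPase, 2 of 8 tested fell in WT cells and 3 rose in KO cells on differentiation. For comparison, 9.16% of all genes fell in WT cells and 17.3% rose in KO cells. Dnaja1 measured 428 to 453 normalized counts in WT myoblasts and 219 to 372 in WT myotubes, against 361 to 476 and 502 to 635 in KO cells. It fell by 0.47 in WT and rose by 0.52 in KO cells (SE 0.17, limma adjusted p = 0.0457 and 0.0195). The difference of these changes passed, at 0.99 (SE 0.23, adjusted p = 0.0195), with 49.2% of its last 500 bases shared with other genes. Dnajb1 fell by 0.53 in WT cells (adjusted p = 0.0453), and Dnajc7 and Dnajb6 rose by 0.59 and 0.51 in KO cells (adjusted p = 0.0307 and 0.0293), with 27.9% of the last 500 bases of Dnajb6 shared with other genes.

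Of the 9 other BAG family members and HSP70 cofactors, all tested, 2 fell in WT cells, against 9.16% of all genes. In KO cells 5 fell and 1 rose, against 16.1% and 17.3% of all genes. With the 3 libraries set aside 3 were called in KO cells, against 34.2% of all genes in either direction. Stip1, which hands clients from HSP70 to HSP90, fell by 0.90 in WT and 0.99 in KO cells (SE 0.23, limma adjusted p = 0.00746 and 0.00218). Hspbp1, an inhibitor of Stub1 and exchange factor of HSP70, fell by 0.86 and 0.80 (adjusted p = 0.0081 and 0.00867). In KO cells Bag2, itself an inhibitor of Stub1, and Bag1, which takes clients to the proteasome, fell by 0.77 and 0.71 (adjusted p = 0.0473 and 0.0194), and Bag1 was lower in KO than in WT myotubes by 0.85 (adjusted p = 0.00929). St13 was higher in KO myotubes by 0.47 and Bag5 lower in KO myoblasts by 0.52 (adjusted p = 0.0334 and 0.0417).

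Of 10 tested HSP90 co-chaperones and myosin chaperones, Unc45b and Smyd1, which act on myosin, rose in both genotypes. The genes that fell were 4 others in WT and 3 in KO cells. Over all genes, 13.8% rose and 9.16% fell in WT cells, and 17.3% rose and 16.1% fell in KO cells. Unc45a, the general relative of Unc45b, passed in neither, with log2 differences of -0.03 and 0.06. Smyd1, a muscle methyltransferase that works with HSP90 in thick filament assembly, measured 39.5 to 53.5 normalized counts in WT and 0 to 1.67 in KO myoblasts, and 186 to 271 against 49.6 to 90.0 in myotubes. It rose by 2.28 in WT and 5.49 in KO cells (SE 0.31, limma adjusted p = 1.44e-05 and 8.41e-12). Its interaction was 3.21 (SE 0.43, limma adjusted p = 7.18e-05), and all 8 muscle markers were called higher there too, with a median of 4.19. The KO rise and the interaction of Smyd1 depend on the pseudocount because KO myoblasts held 0 to 2 reads per library. Unc45b held 0 to 7 reads per library in WT myoblasts and 81 to 99 in WT myotubes, a fitted rise of 4.31 (adjusted p = 1.15e-06). In KO cells it held 0 reads in all 4 myoblast libraries and 35 to 68 in the myotube libraries (adjusted p = 2.73e-09), where the pseudocount sets the fitted size. Both were called lower in KO myoblasts, although the Unc45b counts of the groups overlapped, and Smyd1 was also lower in KO myotubes, by 1.72 (adjusted p = 0.000338). Ptges3 and Fkbp4 were the general co-chaperones that fell most, by 1.08 and 0.89 in WT and by 0.76 and 1.07 in KO cells (adjusted p from 0.000697 to 0.00806).

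Of 7 tested subunits of the cytosolic chaperonin CCT, 1 fell in WT cells and 2 in KO cells, against 9.16% and 16.1% of all genes. Tcp1 fell in both, by 0.68 and 0.73 (limma adjusted p = 0.0132 and 0.00531). Cct8 was lower in KO myoblasts by 0.43 (limma adjusted p = 0.0319). Of the 4 heat shock factors and regulators tested, 1 passed in any comparison. It was Hsf2, which rose by 0.61 on differentiation of KO cells (limma adjusted p = 0.0355), a step on which 17.3% of all genes rose. Hsf1, the main heat shock regulator, measured 52.0 to 195 normalized counts over the 16 samples. Of 4 further genes named with the small heat shock proteins, Hspb11 alone was tested, and it was higher in KO myoblasts by 1.53 (adjusted p = 0.00122).

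**Figure D4:**
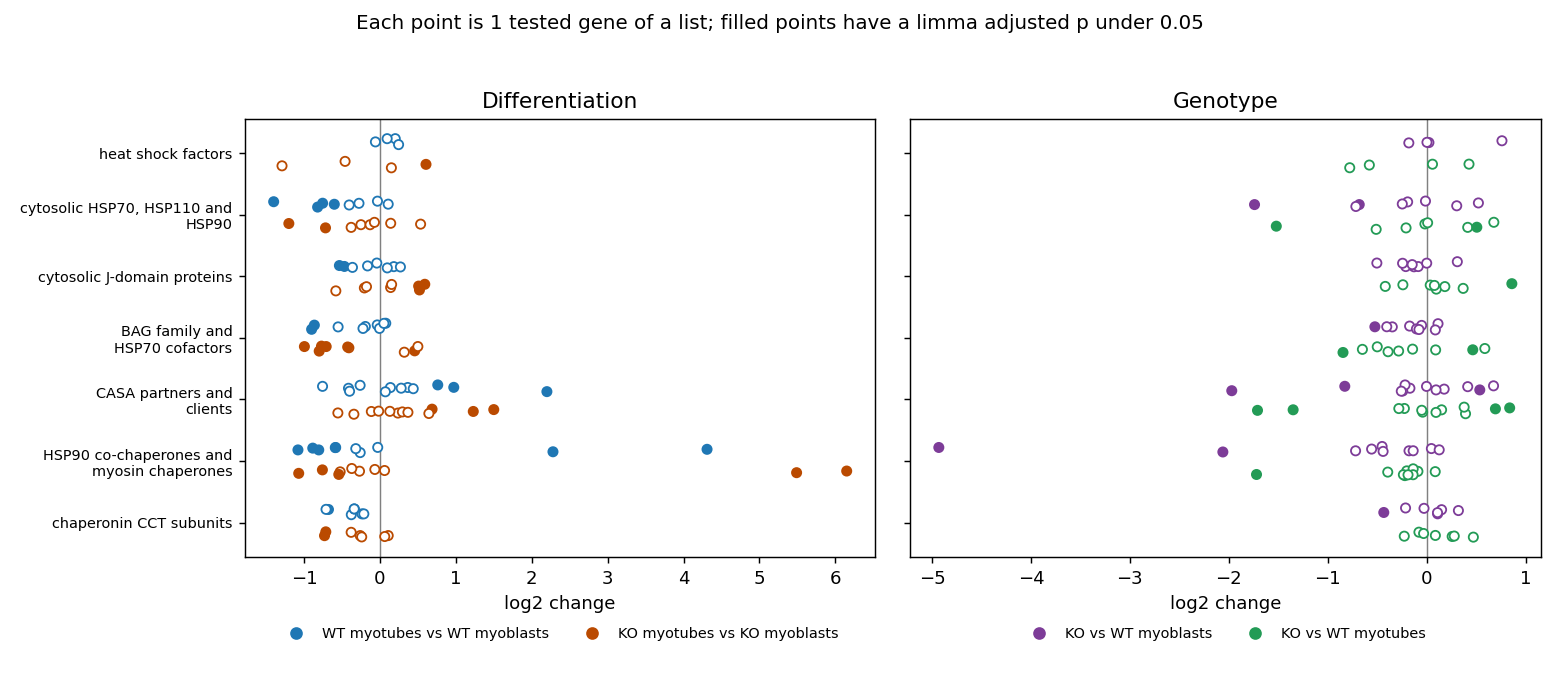
limma log2 change (horizontal axes) of each tested gene of 7 chaperone and autophagy lists, on differentiation (left) and in KO against WT cells (right); filled points have an adjusted p under 0.05. Unc45b and Smyd1 lie farthest to the right on the left panel, with KO positions that depend on the pseudocount, and most other filled points of the chaperone lists on that side are below 0.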

How the data were processed

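RNA was profiled with a 3′ digital mRNA-seq kit on 16 C2C12 samples. Per the labels and the study's methods, the authors demultiplexed with bcl2fastq, trimmed, aligned to mm10 with STAR 2.6.0a and counted reads per gene with HTSeq; strand settings are not given in the sources used here. The deposited values are log2(normalized count + 1), and whole reads could be recovered from 100% of values above 0 (within 0.02 reads). Genes with at least 10 normalized counts in at least 4 samples were kept (10767 of 31053), and all 16 samples were fitted in 1 limma 3.58.1 model (R 4.3.3) of the 4 group means with an intensity trend on the deposited log2 values, with Benjamini-Hochberg adjustment over all genes tested and a threshold of 0.05. Positions are from GENCODE and windows from RefSeq, both GRCm38. Every fold change is on the log2(normalized count + 1) scale, which understates changes of low genes. The members, the gene lists and the named partners were chosen with earlier results of these data known: all 10 members are named, with at most 4 called genes per list and comparison, genes needed for their role, and 2 most similar genes per called member. Hspb3 was tested with exact permutation tests over samples. Alternatives were other pseudocounts (0.5 and 5), filters (none, or a minimum of 50), scalings, sample weights, voom, only the 8 samples compared, a stricter threshold of 0.01, a replicate block, each sample left out, and, chosen after seeing the data, 3 libraries left out. The labels call the samples of a group biological replicates without saying how the cultures were separated. The limma p-values therefore rest on the spread between these samples, taken as 1 estimate per gene over all 4 groups. With only the 8 samples compared, calls over all genes went from 2474 to 3334 in WT and from 3591 to 2755 in KO cells. Between genotypes they went from 1697 to 2656 in myoblasts and from 2521 to 1565 in myotubes. Intervals on reads cover counting error only. The fit was tested on simulated data with the same spread rule in every group, which cannot check the shared estimate where the groups differ in spread. The check of replicate numbers is in the closing section.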

Additional observations from a re-analysis of the deposited data

Results flagged for a closer look

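In KO myoblasts, Hspb7 measured 0.830 normalized counts (1 read) in replicate 2 and 0 in the other 3 samples, and Bag3 measured 237 in replicate 2 against 128 to 141 in the others. Both were set apart because the gap to the nearest sample was a larger share of the group's range than Dixon's critical value for 4 samples allows. Of 39 gene and group combinations examined, 2 did so, and chance sets apart about 1 in 20; the Hspb7 case is a single read. The same KO myoblast library was the highest of its group for 5 of the 10 genes, this single read included, and the lowest for 2. Libraries of other groups were the highest for up to 4 of the 10, and the share over all genes was not taken.

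The change on differentiation differed between genotypes for Dnaja1, by 0.989 on the log2 scale (limma adjusted p = 0.0195), and for Smyd1, by 3.21 (adjusted p = 7.18e-05). Dnaja1 fell in WT and rose in KO cells, and Smyd1 rose in both, from 0 to 2 reads per library in KO myoblasts. All 8 muscle markers were also called higher for the interaction, with a median log2 difference of 4.19.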

How the results depend on the processing

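Of the 1003 values computed for single genes under the alternatives, 911 kept direction and side of the threshold, 31 lost a call, 19 gained one and 42 changed sign, all of the latter in differences that were not called; the causes were not tested. The number of the 9 genes called on differentiation of WT cells, 7, became 3 at an adjusted p under 0.01 and ranged from 4 to 8 with 1 sample left out (4 without WT myoblast replicate 1 or 4 or WT myotube replicate 1 or 4). In KO cells the number, also 7, became 5 at an adjusted p under 0.01 and ranged from 6 to 8 with 1 sample left out. In KO against WT myoblasts the 1 call became 0 with a pseudocount of 5 or quantile normalization, 2 with only the 8 samples compared, 5 with sample weights, 3 with 3 libraries left out and 1 to 2 with 1 sample left out (2 without WT myoblast replicate 1 or KO myoblast replicate 2); in myotubes it ranged from 2 to 3. The interaction, 0, became 1 (Cryab) with sample weights, with 3 libraries left out and without KO myotube replicate 2, a range of 0 to 1.

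Sign changes were as follows. With sample weights, Bag3 on WT differentiation was 0.10, Hspa8 in KO against WT myotubes 0.22 and the Hspb2 interaction 0.0134. Hspa8 in KO against WT myotubes was also 0.30 with quantile normalization, 0.0068 with voom and 0.32 with 3 libraries left out. The Hspb7 interaction was 0.47 with a pseudocount of 0.5, 0.69 with voom and 0.0414 with 3 libraries left out, where that of Hspb2 was 0.0711. The Hspb8 interaction was -0.0541 with total scaling, -0.0406 with quantile normalization and -0.0019 with voom. With 1 sample left out, Bag3 ranged from -0.11 to 0.0819 on WT differentiation, -0.28 to 0.022 in KO against WT myoblasts and -0.0562 to 0.32 in myotubes, Hspb6 in myoblasts from -0.32 to 0.0195, and Hspa8 in myotubes from -0.35 to 0.20. The interactions ranged from -0.51 to 0.0601 for Hspb7, -0.0476 to 0.51 for Hspa8, -0.16 to 0.18 for Hspb2 and -0.12 to 0.21 for Hspb8.

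Replicate numbers did not pair the samples (mean correlation of same-numbered deviations 0.033, range -0.223 to 0.369, and 7 of 16 samples closest to their own number), and a fit with the replicate block called 7, 7, 1, 2 and 0 of the genes, as without it. Over all genes, calls ranged from 1269 to 4683 in WT, 2216 to 3990 in KO, 1041 to 3773 between myoblasts, 1349 to 2748 between myotubes and 141 to 1221 for the interaction, lowest at an adjusted p under 0.01, against 2474, 3591, 1697, 2521 and 371. Depth limits Hspb3, Hspa8 and the myoblast levels of Hspb7, Smyd1 and Unc45b, where a few reads set the value.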
